A study of Rattus norvegicus albus with 14 samples.

Results

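The genes described here are the 10 core circadian clock genes that were looked up by symbol in the deposited count tables: Arntl (also named Bmal1), Clock, Per1, Per2, Per3, Cry1, Cry2, Nr1d1, Nr1d2 and Dbp. All 10 of 10 symbols were found, each with a single rat gene identifier, out of 32545 genes in the tables, and all 10 passed the filter on low counts among 15655 genes tested. The cells were ventricular myocytes from 1-day-old Sprague-Dawley rats, pooled after a preplating step meant to remove fibroblasts, recovered overnight in medium with serum, and then held in minimal medium to which insulin, transferrin and selenium were added. Every culture, the vehicle control included, received 1% dimethyl sulfoxide (DMSO), and the treated ones also received 10 µmol/L rosiglitazone, a thiazolidinedione that activates the nuclear receptor PPARγ. The groups were DMSO at 0.5 h (1 library) and rosiglitazone at 0.5 h, 24 h and 48 h (2 libraries each). Since the analysed vehicle library is of 0.5 h alone, hours in culture and hours of drug cannot be told apart at 24 and 48 h. The labels name neither the time of day of treatment or harvest nor a step that sets the cells in phase. The rosiglitazone time points lie about a day apart, so a daily rhythm would be met near the same phase each time. Phase and level of a clock gene therefore cannot be told apart.

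The mammalian clock is a feedback loop of transcription. The proteins of Clock and Arntl pair up and switch on genes that carry E-box elements, among them the Per and Cry genes, whose products return to the nucleus and hold that pair down. A second loop runs through Nr1d1 and Nr1d2, which encode the heme-binding repressors REV-ERBα and REV-ERBβ and keep Arntl low. In a running clock Arntl RNA therefore peaks at about the opposite phase to Nr1d1, Dbp and the Per genes. Heart muscle cells hold such a clock, which is known for setting daily rhythms in fuel use and ion channel genes, and cells in a dish keep it running for days after a change of medium while they drift out of step with each other. PPAR receptors are known to bind near some clock genes in other tissues.

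The libraries held 10886559 to 28074620 counts, the fewest in rosiglitazone 48 h replicate 2. Levels are given as CPM, a count divided by its library's TMM-scaled size, which serves to compare a gene with itself across libraries. CPM values are not scaled to gene length, so levels of different genes are not compared as amounts of RNA. Of 6 genes listed for PPAR, 2 passed the test late in the course, where 6.59% of all genes passed in 48 h against 0.5 h. The list was chosen with earlier results of these data known, and the vehicle library is of 0.5 h alone. Its calls therefore cannot serve as a check of the drug. Angptl4, a lipase inhibitor and a known PPAR target, rose in 48 h against 0.5 h by 4.24 ± 0.33 on the log2 scale (SE, adjusted p = 0.00502, edgeR's quasi-likelihood test), and Acot2, a mitochondrial acyl-CoA thioesterase, by 4.42 ± 0.36 (adjusted p = 0.00502). At 0.5 h Angptl4 was lower on the drug, at 35.9 and 43.1 CPM against 95.7 in DMSO (-1.28 ± 0.34, adjusted p = 1), so its 844.1 and 646.8 CPM at 48 h stand less far above DMSO than above the 0.5 h pair. The other 4 genes of that list did not pass the test.

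Markers of the cell types that such a culture can hold also differed between libraries. The summed level of the 6 cardiomyocyte markers was 4949 CPM in DMSO, 8546 and 8016 in rosiglitazone 0.5 h, 6969 and 1572 at 24 h and 192.4 and 1244 at 48 h. In 24 h replicate 1 this sum hides markers that went opposite ways. There Myh6 (385.3 CPM), Actc1 (1058) and Ryr2 (76.0) lay below both rosiglitazone 0.5 h libraries, while Tnnt2 (3215), Tnni3 (945.1) and Pln (1290) lay above them. At 48 h against 0.5 h, 4 of the 6 passed the test and all 4 were lower (Ryr2, Myh6, Actc1 and Tnni3). Of all genes tested, 6.59% passed there. Calls on 2 of 5 smooth muscle and 3 of 4 endothelial markers were also lower. So were those on 2 of 6 macrophage and 2 of 4 epicardial markers, while 1 of 4 fibroblast markers was called higher. The 4 fibroblast markers found summed to 47575 CPM in DMSO, 46164 and 47787 in rosiglitazone 0.5 h, 29497 and 29434 at 24 h and 15940 and 28947 at 48 h, sums that Col1a1 and Col3a1 make up for the most part. Dcn of the same list went the other way, from 807.9 and 993.8 CPM in rosiglitazone 0.5 h to 8477 and 4549 at 48 h, and rose (2.85 on the log2 scale, adjusted p = 0.0149), and Pdgfra was 1.05 higher without passing the test (adjusted p = 0.0890). The 6 macrophage markers summed to 486.8 CPM in DMSO and to 49.33 to 182.7 in the 6 rosiglitazone libraries. Smooth muscle markers (5 genes) ranged from 207.9 to 2998 CPM, endothelial markers (4 genes) from 21.48 to 126.6 and epicardial markers (4 genes) from 53.97 to 232.4, each with its lowest sums at 24 and 48 h. The only markers at 0 in any library were Rgs5 of the smooth muscle list and Upk3b of the epicardial list. In bulk RNA, fewer cells of a type and less of an RNA per cell cannot be told apart, and the part of these shifts in the clock values below was not tested.

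Arntl, the DNA-binding activator that pairs with Clock, had its highest levels at 48 h. It stood at 20.0 CPM in DMSO, 24.0 and 18.6 in rosiglitazone 0.5 h, 16.5 and 36.7 at 24 h and 51.1 and 35.3 at 48 h. The 48 h libraries lay above both 0.5 h libraries, while the 24 h libraries overlapped all other groups. The fitted difference of 48 h against 0.5 h was 1.02 ± 0.45 on the log2 scale (SE, n = 2 and 2 libraries), with a 95% interval from -0.02 to 2.06 and an adjusted p of 0.226 by edgeR's quasi-likelihood test. Group means were 21.3 ± 3.83 CPM at 0.5 h, 26.6 ± 14.3 at 24 h and 43.2 ± 11.1 at 48 h (SD, n = 2), and libraries of neighbours in that order overlapped.

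Clock encodes the partner of the Arntl protein and is known as the steadier of the pair. Its level was 105.6 CPM in DMSO, 103.6 and 78.5 in rosiglitazone 0.5 h, 68.7 and 145.6 at 24 h and 111.0 and 82.8 at 48 h. The 24 h libraries held both the lowest and the highest value of all 7, and every rosiglitazone group overlapped the others. The fitted difference of 48 h against 0.5 h was 0.09 (95% interval -0.83 to 1.01).

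**Figure D1:**
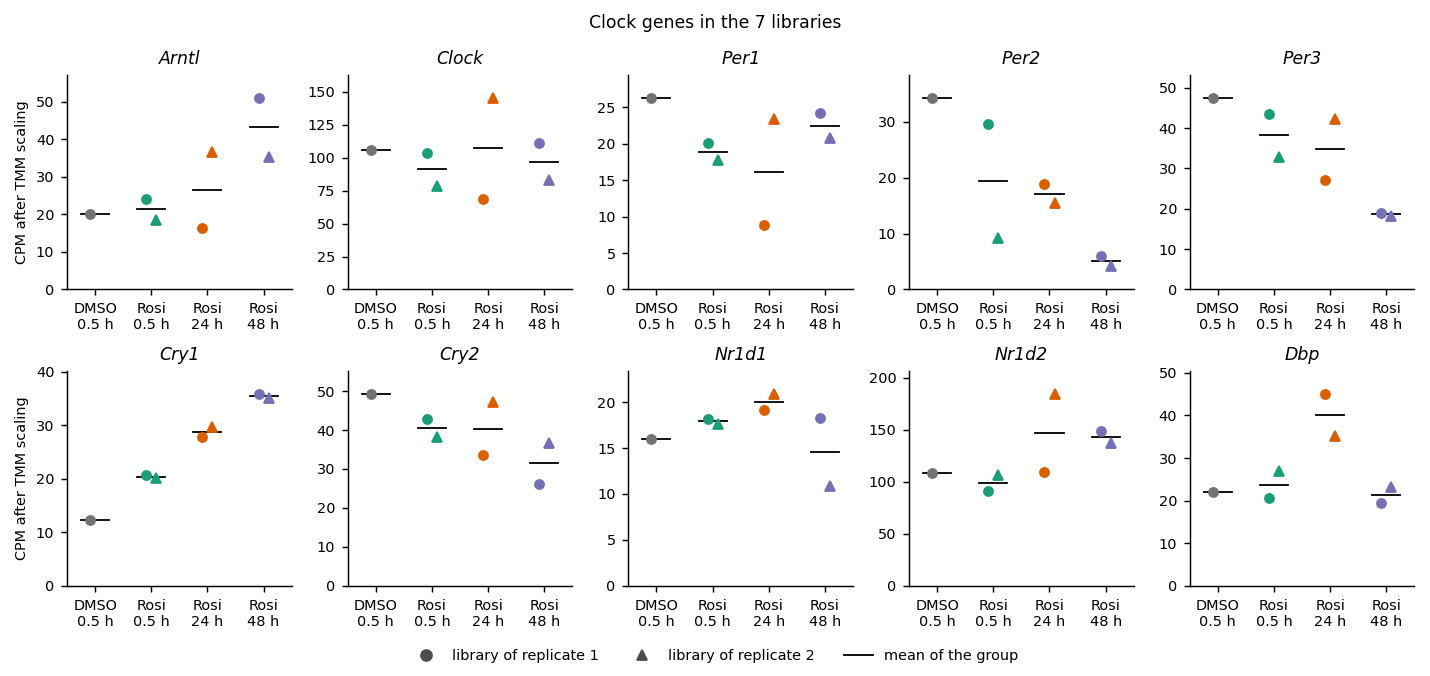
Level of each clock gene in the 7 libraries, in CPM after TMM scaling on linear axes that start at 0. Circles and triangles are the libraries of replicate 1 and 2, and the line is the group mean (for DMSO, its 1 library). Cry1 steps up from group to group with tight pairs, Per2 and Per3 are lowest at 48 h, Dbp is highest at 24 h, and Arntl, Clock and Per1 are far apart in the pair at 24 h.

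Per1, Per2 and Per3 encode the period proteins, the limb of the loop that holds the activators down. Per1, which is known to respond within an hour to serum, glucocorticoids and cyclic AMP, was 26.3 CPM in DMSO, 20.0 and 17.8 in rosiglitazone 0.5 h, 8.87 and 23.4 at 24 h and 24.2 and 20.7 at 48 h. DMSO held the highest value of the 7, and the 24 h pair differed by 2.62-fold. The fitted difference of rosiglitazone against DMSO at 0.5 h was -0.48 ± 0.58 (adjusted p = 1), where DMSO is a single library and its spread is taken from the other groups.

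Per2, a main repressor in the loop, had the largest ratio of highest to lowest library of the 10 genes. It was 34.4 CPM in DMSO, 29.6 and 9.16 in rosiglitazone 0.5 h, 18.8 and 15.5 at 24 h and 6.08 and 4.28 at 48 h. The 48 h libraries were below the other 5. How many of all genes had such a split was not counted. Libraries of all genes did not overlap for 62.7% in 48 h against 0.5 h and 29.2% in 48 h against 24 h. The 0.5 h replicates of Per2 differed by 3.22-fold, more than any other pair of libraries of 1 group for these genes. The lowest value rested on 46 counts, with an exact Poisson 95% interval from 3.13 to 5.71 CPM that covers counting error only. The fitted difference of 48 h against 0.5 h was -1.90 ± 0.59, a 3.72-fold lower level (95% interval -3.26 to -0.53, adjusted p = 0.103 by edgeR's quasi-likelihood test). It did not pass the threshold of 0.05, and DESeq2 called it, at -1.92 with an adjusted p of 0.0152. The size rested on rosiglitazone 0.5 h replicate 1: without that library the Per2 difference was -0.84 (adjusted p = 0.701).

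Per3, the period gene that the loop can run without, was 47.6 CPM in DMSO, 43.5 and 32.9 in rosiglitazone 0.5 h, 27.2 and 42.3 at 24 h and 19.0 and 18.2 at 48 h. Like Per2 it was lowest in both 48 h libraries, and its pair there was the closest of the 3 groups (18.6 ± 0.519 CPM, SD, n = 2). The fitted difference was -1.04 ± 0.34 for 48 h against 0.5 h (adjusted p = 0.121, edgeR's quasi-likelihood test) and -0.90 ± 0.34 for 48 h against 24 h (adjusted p = 0.532). Without rosiglitazone 24 h replicate 1 or replicate 2 the first of these was -1.03 and -1.07 for Per3.

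Cry1 and Cry2 encode the cryptochromes, the strong repressors that bind the Clock and Arntl proteins. Cry1 was 12.2 CPM in DMSO, 20.8 and 20.1 in rosiglitazone 0.5 h, 27.8 and 29.7 at 24 h and 35.8 and 35.2 at 48 h. Cry1 alone among the 10 had libraries that stood in the order DMSO, 0.5 h, 24 h, 48 h with no overlap at any step. How many of all genes did so was not counted. The single steps showed no overlap for 62%, 50.1% and 29.2% of all genes. For Cry1 the differences between groups exceeded the spread within pairs (SD 0.511, 1.37 and 0.483 CPM, n = 2). The fit shares information on spread across genes, and by it the difference of 48 h against 0.5 h was 0.80 ± 0.29 (95% interval 0.11 to 1.48, adjusted p = 0.158 by edgeR's quasi-likelihood test), a 1.74-fold higher level. The steps were 0.74 ± 0.37 from DMSO to rosiglitazone 0.5 h, 0.49 ± 0.29 to 24 h and 0.31 ± 0.29 to 48 h, none past the threshold (adjusted p = 1, 0.452 and 0.853).

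Cry2 was 49.3 CPM in DMSO, 42.8 and 38.2 in rosiglitazone 0.5 h, 33.6 and 47.1 at 24 h and 26.2 and 36.7 at 48 h. Its highest value was in DMSO and its lowest at 48 h, the opposite ends from Cry1, and the 24 h pair overlapped every other group but DMSO. The fitted difference of 48 h against 0.5 h was -0.37 ± 0.32 (95% interval -1.12 to 0.39, adjusted p = 0.546).

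Nr1d1 and Nr1d2 encode the REV-ERB repressors of Arntl. Nr1d1 was 15.98 CPM in DMSO, 18.2 and 17.7 in rosiglitazone 0.5 h, 19.2 and 20.9 at 24 h and 18.2 and 10.9 at 48 h. The values differed little up to 24 h, and of the 48 h pair replicate 1 was at the level of the 0.5 h pair while replicate 2 was the lowest of all 7. Nr1d1 is known as a PPARγ target in fat cells, and its fitted difference of 24 h against 0.5 h was 0.16 (95% interval -0.73 to 1.05). In the RefSeq annotation Nr1d1 overlaps Thra, the thyroid hormone receptor α gene on the opposite strand. The kit keeps strand according to the labels, but the strand setting of the counting is unknown here, so Nr1d1 counts may hold Thra reads. Thra itself was 83.7 CPM in DMSO, 80.8 and 89.3 in rosiglitazone 0.5 h, 80.6 and 38.1 at 24 h and 44.7 and 80.6 at 48 h, with its low and high libraries at 48 h the other way round from those of Nr1d1. Clock, Per2 and Cry2 also overlap uncharacterised noncoding genes there, and Cry1 an uncharacterised coding gene. That annotation is of another rat build than the counts, and shared exons were not checked. Whether reads of these genes entered the counts is therefore unknown.

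Nr1d2 was 108.1 CPM in DMSO, 90.8 and 106.5 in rosiglitazone 0.5 h, 109.4 and 184.4 at 24 h and 148.9 and 137.2 at 48 h. All 4 later libraries were above both 0.5 h libraries, the smallest gap being 109.4 against 106.5 CPM. The fitted difference was 0.57 ± 0.31 for 24 h against 0.5 h (adjusted p = 0.416) and 0.54 ± 0.31 for 48 h against 0.5 h (adjusted p = 0.358). The first of these was 0.90 without rosiglitazone 24 h replicate 1 and 0.13 without replicate 2.

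Dbp, a transcription factor that the Clock and Arntl proteins switch on directly and that serves as a readout of the loop, was highest at 24 h. It was 22.1 CPM in DMSO, 20.6 and 27.0 in rosiglitazone 0.5 h, 45.03 and 35.1 at 24 h and 19.4 and 23.2 at 48 h. Both 24 h libraries lay above the other 5, and DMSO, 0.5 h and 48 h overlapped. How many of all genes had such a split was not counted. Libraries of all genes did not overlap for 50.1% in 24 h against 0.5 h and 29.2% in 48 h against 24 h. The fitted difference was 0.75 ± 0.33 for 24 h against 0.5 h (95% interval -0.01 to 1.51, adjusted p = 0.324) and -0.92 ± 0.33 for 48 h against 24 h (95% interval -1.68 to -0.15, adjusted p = 0.501). For 48 h against 0.5 h the Dbp difference was -0.16 (95% interval -0.92 to 0.60).

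**Figure D2:**
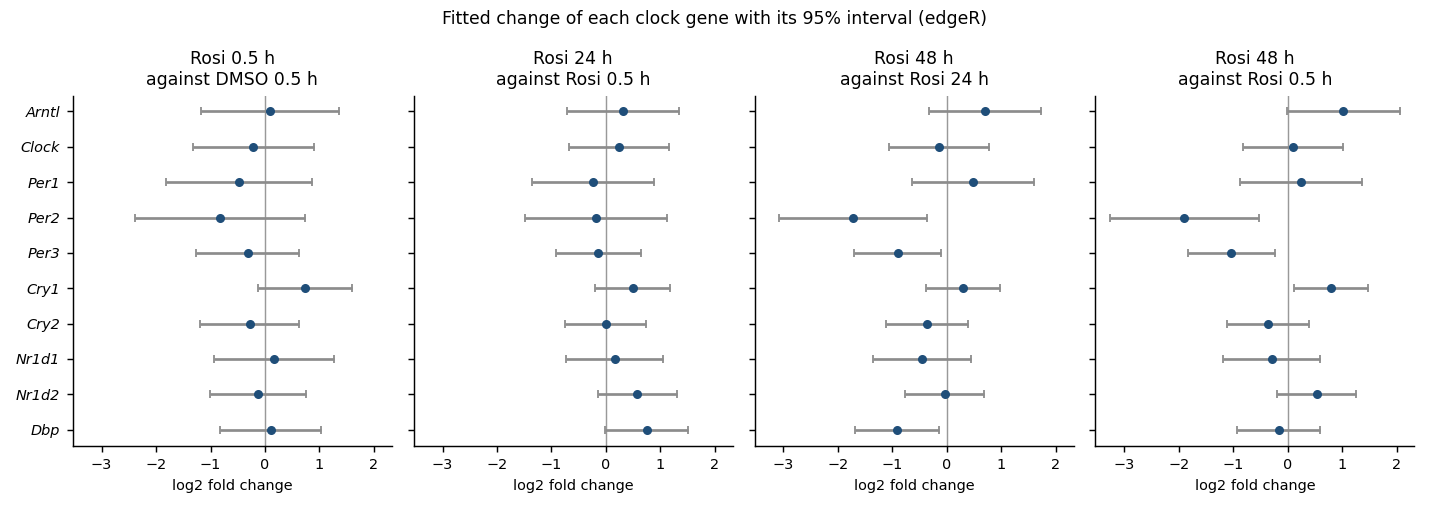
Fitted log2 fold change of each clock gene in 4 comparisons, with its 95% interval from edgeR's quasi-likelihood fit. The intervals of Per2 and Per3 lie below 0 in both comparisons of 48 h, that of Dbp lies below 0 in 48 h against 24 h, and that of Cry1 lies above 0 in 48 h against 0.5 h, before any adjustment for the number of genes tested.

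Counted over the 10 genes, none passed an adjusted p of 0.05 in any of the 5 comparisons by edgeR's quasi-likelihood test. The 4 comparisons that use rosiglitazone 0.5 h share its libraries, and those of 24 and 48 h recur as well, so the comparisons are not independent of each other. For rosiglitazone against DMSO at 0.5 h, where 0% of all genes tested passed, 0 of 10 had an unadjusted p under 0.05 (0.607% of all genes) and DESeq2 called 0 of 10 (0.0108%). The DMSO library lay outside the pair of rosiglitazone libraries for 8 of 10, with Cry1 and Nr1d1 higher on the drug and Clock, Per1, Per2, Per3, Cry2 and Nr1d2 lower, but so it did for 62% of all genes, as 1 library against 2 often must.

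For 24 h against 0.5 h, 0.0958% of all genes passed and 0 of the 10. At an unadjusted p under 0.05 the clock genes again numbered 0, where 15.7% of all genes qualified, and DESeq2 called 0 where it called 8.59% of the genes it adjusted. Libraries of the groups did not overlap for 4 of the 10 (Cry1, Nr1d1, Nr1d2 and Dbp, all higher at 24 h), against 50.1% of all genes. The median log2 fold change was 0.20 for the 10 genes and -0.03 for all genes tested.

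For 48 h against 24 h, 0% of all genes passed. Per2, Per3 and Dbp had an unadjusted p under 0.05, all lower at 48 h, which is 3 of 10 where the background was 8.14% of all genes. Of these Per2 had the largest difference, -1.72 ± 0.58 (95% interval -3.08 to -0.36, adjusted p = 0.466, edgeR's quasi-likelihood test). DESeq2 called 0 of 10 and 3.46% of the genes it adjusted. Libraries did not overlap for 5 of the 10 (Cry1 higher, and Per2, Per3, Nr1d1 and Dbp lower), against 29.2% of all genes, and the median was -0.25 for the 10 and -0.01 for all.

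For 48 h against 0.5 h, 6.59% of all genes passed the test and 0 of the 10 clock genes. At an unadjusted p under 0.05 there were 3 of 10 (Cry1 higher, Per2 and Per3 lower) against 22.9% of all genes, and DESeq2 called 1 of 10 (Per2) against 18% of the genes it adjusted. Libraries did not overlap for 7 of 10 (Arntl, Per1, Cry1 and Nr1d2 higher, Per2, Per3 and Cry2 lower), against 62.7% of all genes. Each of these counts lay within 1 gene of what the background share gives for 10 genes. The median change without regard to sign was 0.45 for the 10 and 0.71 for all genes. For the mean of 24 and 48 h against 0.5 h, 7.25% of all genes passed and 0 of 10. Cry1 alone had an unadjusted p under 0.05 there (0.64 ± 0.26, adjusted p = 0.181), against 24.5% of all genes, DESeq2 called 0 of 10 against 18%, and libraries did not overlap for 2 of 10 (Cry1 and Nr1d2, both higher) against 38.1%. Without rosiglitazone 24 h replicate 1, the difference of Nr1d2 in that comparison was 0.72.

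Ratios of 2 clock genes within a library do not depend on how libraries are scaled. Their size does depend on gene length, so only their change between libraries is read here. The ratios were taken as the log2 ratio of counts with an offset of 0.5, for 6 pairs, and are described without a test. As the time points lie about a day apart, they do not show the phase of the clock. The ratio of Per2 to Arntl, the repressor over the activator, was 0.78 in DMSO, 0.30 and -1.02 in rosiglitazone 0.5 h, 0.19 and -1.25 at 24 h and -3.07 and -3.03 at 48 h. In plain counts, DMSO held 1.72 Per2 reads for each Arntl read and the 48 h libraries 0.119 and 0.121. The 2 libraries of 48 h were close in this ratio (SD 0.025, n = 2), whereas those of 0.5 h and of 24 h were more than 2-fold apart.

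The ratio of Nr1d1 to Arntl was -0.32 in DMSO, -0.40 and -0.08 in rosiglitazone 0.5 h, 0.22 and -0.81 at 24 h and -1.49 and -1.70 at 48 h. That of Dbp to Arntl was 0.15, then -0.22 and 0.54, 1.45 and -0.07, and -1.40 and -0.61 in the same order. The activators also shifted against each other. In plain counts there were 5.29 Clock reads per Arntl read in DMSO, 4.31 and 4.22 in rosiglitazone 0.5 h, 4.17 and 3.97 at 24 h and 2.17 and 2.34 at 48 h. Both 24 h libraries thus kept the proportion of the 0.5 h pair, although the level of either gene differed by more than 2-fold between them.

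Among the repressors, Per1 over Per2 was -0.38 in DMSO, -0.56 and 0.96 in rosiglitazone 0.5 h, -1.08 and 0.60 at 24 h and 1.99 and 2.27 at 48 h. Cry1 over Cry2 was -2.01 in DMSO, -1.04 and -0.93 in rosiglitazone 0.5 h, -0.28 and -0.67 at 24 h and 0.45 and -0.06 at 48 h. Arntl or Per2 enters 5 of the 6 ratios, so these are not separate observations.

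**Figure D3:**
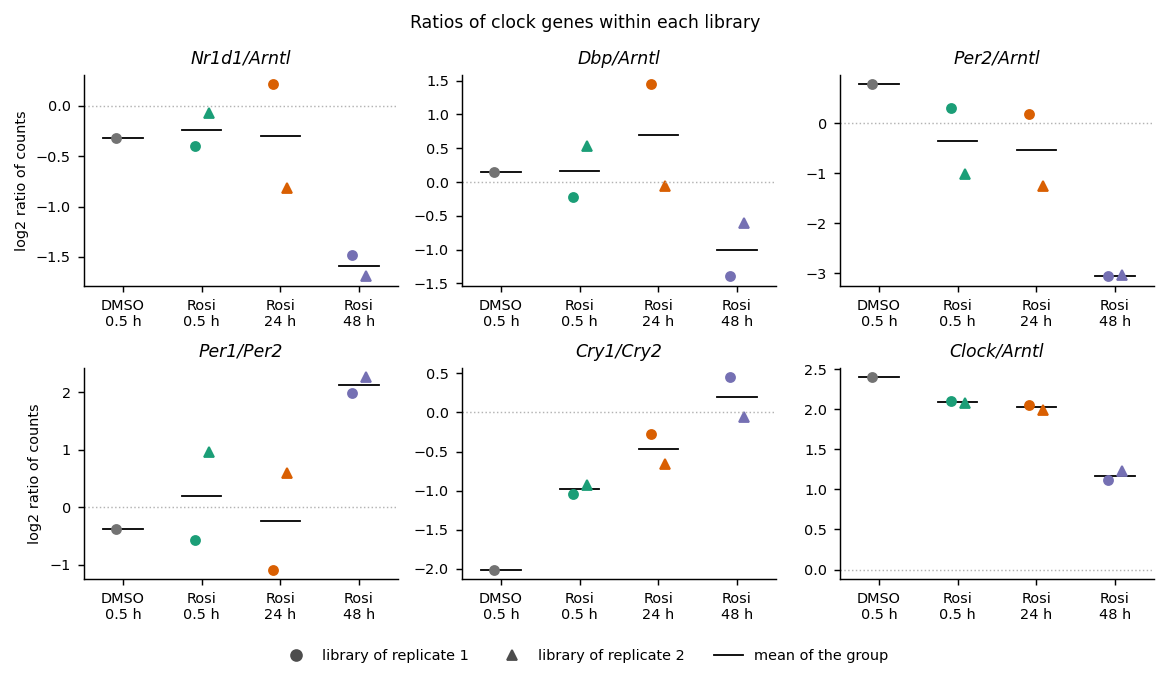
Log2 ratio of counts of 2 clock genes within each of the 7 libraries, for 6 pairs. Circles and triangles are the libraries of replicate 1 and 2, the line is the group mean (for DMSO, its 1 library), and the dotted line marks equal counts. Per2 over Arntl is -3.07 and -3.03 at 48 h and 0.78 in DMSO, and Cry1 over Cry2 goes from -2.01 in DMSO to 0.45 and -0.06 at 48 h.

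The 2 libraries of a group differed most at 24 h. There Arntl (2.22-fold), Clock (2.12-fold) and Per1 (2.62-fold) were all higher in replicate 2 by more than 2-fold, which is 3 of the 10 where 36% of all genes differed by as much. In all, 8 of the 10 clock genes were higher in replicate 2 at 24 h, the exceptions being Per2 and Dbp, while 43.3% of all genes were. Replicate 2 was also the 24 h library with the lower sum of cardiomyocyte markers, 1572 against 6969 CPM, and the part of that in the clock values was not tested. At 0.5 h only Per2 differed by more than 2-fold (1 of 10, against 13.1% of all genes), and at 48 h none did (0 of 10, against 24.9%).

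**Figure D4:**
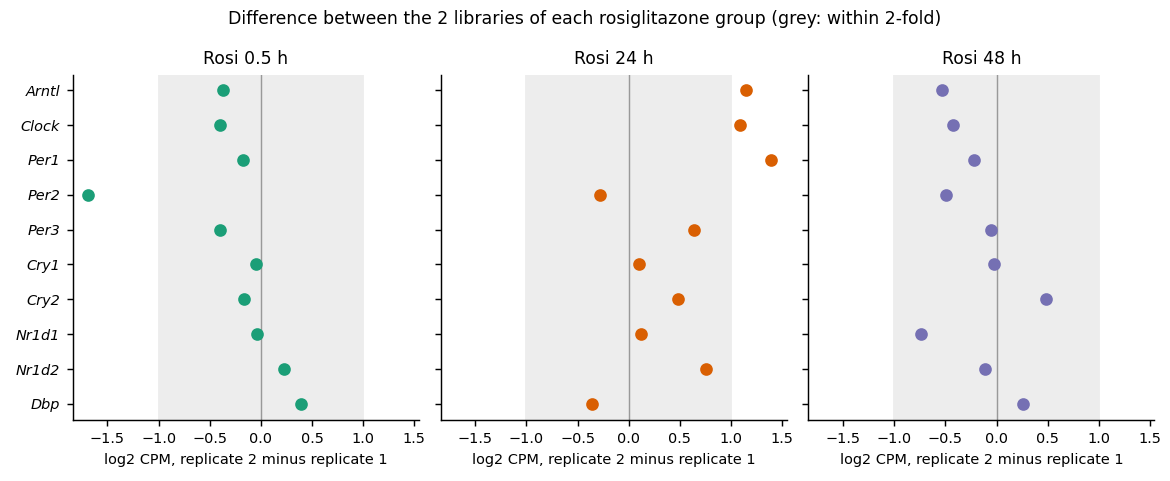
Difference between the 2 libraries of each rosiglitazone group for each clock gene, as log2 CPM of replicate 2 minus replicate 1, with the range within 2-fold in grey. Per2 lies outside it at 0.5 h, Arntl, Clock and Per1 at 24 h, and none of the 10 at 48 h.

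Other factors of the loop were taken from a list of 12, of which 11 were tested. None of the 11 passed the test in any comparison by edgeR's quasi-likelihood test. Their median log2 fold change was 0.73 for 24 h against 0.5 h and 0.45 for 48 h against 0.5 h. That of all genes was -0.03 and -0.07. The list holds genes at or near 0 counts, Hlf (0 to 13 per library), Rorb (0 to 40) and Arntl2 (0 to 41), whose fitted values are poorly measured. Nfil3, a repressor that competes with Dbp for D-box elements, was 21.9 CPM in DMSO, 25.2 and 23.1 in rosiglitazone 0.5 h, 24.9 and 60.1 at 24 h and 86.8 and 56.7 at 48 h. Its difference of 48 h against 0.5 h was 1.57 ± 0.46 (adjusted p = 0.0892 by edgeR's quasi-likelihood test). DESeq2 called it (adjusted p = 0.0184), as it did 18% of the genes it adjusted. Leaving out each library in turn gave 1.20 to 1.85 for Nfil3. Like Arntl, Nfil3 was highest in rosiglitazone 48 h replicate 1.

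Bhlhe40, which encodes the E-box repressor DEC1, was 61.1 CPM in DMSO, 68.8 and 54.6 in rosiglitazone 0.5 h, 80.8 and 97.0 at 24 h and 119.5 and 91.9 at 48 h (0.78 ± 0.28 for 48 h against 0.5 h, adjusted p = 0.154). Tef, a D-box factor related to Dbp, was 83.9 CPM in DMSO, 67.3 and 75.7 in rosiglitazone 0.5 h, 161.5 and 110.7 at 24 h and 81.2 and 123.7 at 48 h. Its difference of 24 h against 0.5 h was 0.93 ± 0.32 (adjusted p = 0.231). Cipc, an inhibitor of the Clock protein, was 45.1 CPM in DMSO, 49.7 and 51.5 in rosiglitazone 0.5 h, 68.0 and 86.5 at 24 h and 63.4 and 56.9 at 48 h (0.61 ± 0.27 for 24 h against 0.5 h, adjusted p = 0.332). Both 24 h libraries of Cipc lay above the other 5, as those of Dbp did, whereas for Tef the 24 and 48 h libraries overlapped. How many of all genes had that pattern was not counted.

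**Figure D5:**
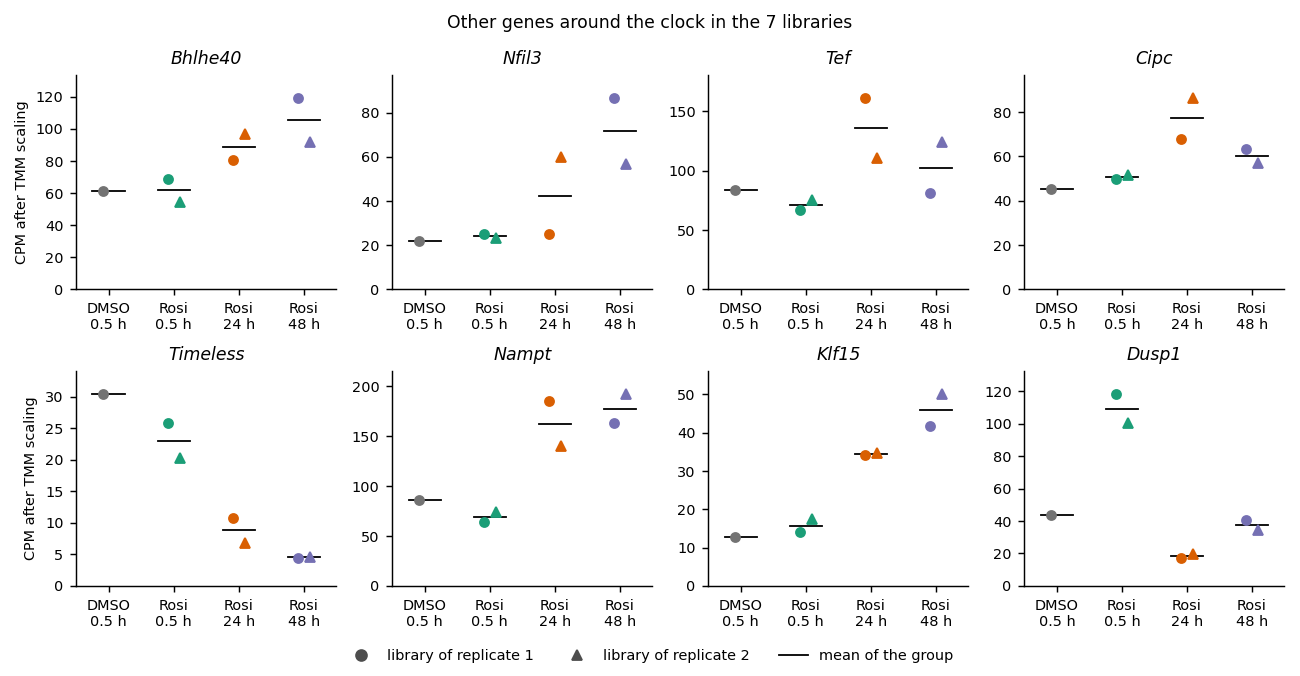
Level of 8 other genes of the clock lists in the 7 libraries, in CPM after TMM scaling on linear axes that start at 0. Circles and triangles are the libraries of replicate 1 and 2, and the line is the group mean (for DMSO, its 1 library). Timeless is 4.47 and 4.56 at 48 h against 30.4 in DMSO, Klf15 and Nampt are high at 24 and 48 h, and Dusp1 is highest in the 0.5 h rosiglitazone pair.

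Enzymes and cofactors that act on clock proteins (kinases, ubiquitin ligase parts, chromatin cofactors) were 16 genes, all tested. In 48 h against 0.5 h, 1 of 16 passed the test, in the downward direction, near the 6.59% of all genes, and the median of the list was 0.21, where that of all genes was -0.07. The same count, 1 of 16 lower, held for the mean of 24 and 48 h, and 0 passed in the other 3 comparisons. That gene was Timeless, which is best known for its part in DNA replication in mammals besides its binding to clock proteins. It was 30.4 CPM in DMSO, 25.9 and 20.2 in rosiglitazone 0.5 h, 10.8 and 6.86 at 24 h and 4.47 and 4.56 at 48 h, and fell by 2.35 on the log2 scale (SE 0.42, adjusted p = 0.0238, edgeR's quasi-likelihood test). Without either library of 0.5 h or of 48 h the call on Timeless was lost (adjusted p from 0.0941 to 0.191). Fbxw11, a ubiquitin ligase part that acts on period proteins, was 0.82 ± 0.26 higher (adjusted p = 0.111, edgeR's quasi-likelihood test). Leaving out each library in turn gave 0.62 to 0.97 for Fbxw11. Kdm5a and Wdr5, cofactors on chromatin, were at 0.51 ± 0.26 and 0.63 ± 0.31 (adjusted p = 0.290 and 0.285).

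Genes known as outputs of the clock in heart or other tissues were 10, of which 8 were tested (Kcnd2 was not matched and Kcnip2 was at or near 0 counts). Between 0.5 and 48 h, 2 of 8 rose and 2 fell, where 6.59% of all genes passed, with a list median of -0.75 against -0.07 for all genes. For the mean of 24 and 48 h against 0.5 h it was 2 higher and 1 lower, and in the other 3 comparisons 0. Nampt, the enzyme that limits the salvage of NAD, was 85.8 CPM in DMSO, 64.0 and 74.4 in rosiglitazone 0.5 h, 185.1 and 140.5 at 24 h and 163.3 and 192.5 at 48 h. It rose by 1.36 ± 0.27 (adjusted p = 0.0320, edgeR's quasi-likelihood test). Klf15, a regulator of fuel use and potassium channels in the heart, was 12.8 CPM in DMSO, 13.98 and 17.5 in rosiglitazone 0.5 h, 34.2 and 34.8 at 24 h and 41.8 and 50.1 at 48 h, and rose by 1.54 ± 0.31 (adjusted p = 0.0325). In both genes all 4 later libraries lay above all 3 libraries of 0.5 h. The share of all genes with that split was not counted. Against the rosiglitazone 0.5 h pair alone, the later libraries did not overlap for 38.1% of all genes, in either direction.

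Tcap, a cap protein of titin at the Z-disc, was 4.77 CPM in DMSO, 12.9 and 7.96 in rosiglitazone 0.5 h, 1.71 and 1.21 at 24 h and 0.220 and 0.372 at 48 h. The 48 h values of Tcap rested on only 6 and 4 counts. It fell by 5.17 on the log2 scale (SE 0.83, adjusted p = 0.0167, edgeR's quasi-likelihood test). The cardiomyocyte markers went down with it, as given above, and their part was not tested. None of the calls on Nampt, Klf15 and Tcap held without either library of 0.5 h or of 48 h (largest adjusted p = 0.298 for Nampt, 0.319 for Klf15 and 0.193 for Tcap).

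Genes that carry outside signals to the clock were 11 symbols with 12 gene identifiers (Nr3c1 has 2), all tested. Of these, 1 fell in 24 h against 0.5 h, 2 fell in 48 h against 0.5 h and in the mean of 24 and 48 h, and none rose in any comparison. The shares of all genes that passed in these comparisons were 0.0958%, 6.59% and 7.25%, and the median for 48 h against 0.5 h was -0.33 for the list and -0.07 for all genes. Fos, an immediate early gene, was 78.8 CPM in DMSO, 227 and 173.3 in rosiglitazone 0.5 h, 6.21 and 4.75 at 24 h and 3.22 and 14.04 at 48 h, and fell by 4.57 on the log2 scale for 48 h against 0.5 h (SE 0.68, adjusted p = 0.0157, edgeR's quasi-likelihood test). The call on Fos was lost without either library of 0.5 h or without 48 h replicate 1 (adjusted p = 0.0872, 0.0583 and 0.0641), and the value was -3.87 without 48 h replicate 1 and -5.95 without replicate 2. Dusp1, a phosphatase of MAP kinases that glucocorticoids and serum induce, was 43.8 CPM in DMSO, 118.4 and 100.2 in rosiglitazone 0.5 h, 17.3 and 19.4 at 24 h and 40.9 and 34.4 at 48 h. It fell by 2.57 for 24 h against 0.5 h (SE 0.29, adjusted p = 0.0357) and by 1.54 for 48 h against 0.5 h (SE 0.28, adjusted p = 0.0246). The Dusp1 calls were lost without either library of 0.5 h or of 48 h, and that at 24 h also without DMSO (largest adjusted p = 0.505 at 24 h and 0.216 at 48 h). Per1, which the same signals induce, was 20.0 and 17.8 CPM in the rosiglitazone 0.5 h pair, in which Fos and Dusp1 were highest, and 26.3 in DMSO.

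Of the other genes of that list, Fkbp5 and Sgk1 had opposite signs and neither passed the test. Fkbp5, a cochaperone of the glucocorticoid receptor, was 31.6 CPM in DMSO, 32.3 and 32.1 in rosiglitazone 0.5 h, 23.7 and 36.4 at 24 h and 53.7 and 54.7 at 48 h (0.75 ± 0.31 for 48 h against 0.5 h, adjusted p = 0.207). Sgk1, a kinase of salt transport, was 97.7 CPM in DMSO, 47.7 and 54.6 in rosiglitazone 0.5 h, 38.8 and 21.1 at 24 h and 31.3 and 23.9 at 48 h (-0.89 ± 0.37, adjusted p = 0.201). Leaving out each library in turn gave -1.13 to -0.71 for Sgk1.

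For Arntl, Nr1d1 and Per1, the genes with the most similar profile over the 7 libraries were looked up among 10094 genes with a mean of at least 5 CPM, by the root mean square difference of log2 CPM after centring each gene on its own mean. The 4 nearest to Arntl were Wtip (0.098), Naf1 (0.132), Aftph (0.144) and Rb1 (0.145). Wtip, for example, was 9.19 CPM in DMSO, 10.3 and 8.83 in rosiglitazone 0.5 h, 8.35 and 17.5 at 24 h and 25.2 and 14.6 at 48 h. The 4 nearest to Nr1d1 were Angel2 (0.085), Pitpnm1 (0.102), Zfp449 (0.112) and Casd1 (0.115). Those nearest to Per1 were Heph (0.098), Jarid2 (0.117), Nsd2 (0.117) and Ttc7a (0.12). No clock gene was as near to any of the 3, the nearest being Nr1d2 for Arntl (0.381) and Clock for Nr1d1 (0.355) and for Per1 (0.327). All profiles share the same 7 libraries and their differences in cell makeup, and the nearest of many genes is near by selection.

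In the authors' deposited table, which holds both splits of each library as columns, the clock genes have smaller adjusted p-values than in the fit used here. Fold changes differed most for Per2 in rosiglitazone against DMSO, at -0.28 in the authors' deposited table and -0.83 in the fit. For rosiglitazone against DMSO at 0.5 h, the authors' deposited table lists 2 of the 10 with an adjusted p under 0.05, Cry1 (0.66 on the log2 scale, adjusted p = 0.000311) and Per1 (-0.44, 0.0187). For 24 h against 0.5 h, the authors' deposited table lists Cry1 (0.51, 2.94e-05), Dbp (0.76, 6.75e-05) and Nr1d2 (0.58, 0.035). The authors' deposited table lists, in 48 h against 24 h, Per2 (-1.62, 9.96e-12), Dbp (-0.91, 1.51e-06) and Per3 (-0.87, 0.00233). When the splits were entered as separate replicates, edgeR's quasi-likelihood test likewise passed Cry1 in the first comparison, Cry1, Dbp and Nr1d2 in the second, and Per2, Per3 and Dbp in the third. Both splits of a library agree within sampling noise (the chi-square of their counts was 0.963 to 1.02 per degree of freedom in the 7 libraries), so each pair was counted as 1 sample, and a fit on splits does not measure the spread between cultures.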

How the data were processed

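Messenger RNA of 7 libraries (14 samples, 2 splits each) was analysed. The authors deposited raw read counts per gene, and per the file headers their results as log2 fold changes with standard errors and p-values. Tools named in the submitters' processing notes include HTSeq, DESeq2 and cutadapt 1.11, beside the rat build Rnor_6.0. The aligner is not given in the sources used here. Both splits of a library agree within sampling noise and were summed. Counts were tested with edgeR 4.0.16 in R 4.3.3 (TMM scaling, the tool's filter on low counts, robust quasi-likelihood fit, 4 groups in 1 fit, 3 residual degrees of freedom, common biological coefficient of variation 0.514), with Benjamini-Hochberg adjustment over 15655 genes and a threshold of 0.05. The labels do not say whether replicates were separate cultures, and p-values then measure a spread that may be technical. Members and lists were chosen with earlier results of these data known. All 10 members were named, and from each other list the 4 genes with the smallest unadjusted p in any comparison (of the PPAR list, the 2 past the threshold), with counts for the list. Some list genes are not reported here by name. Of 87 list entries, 84 were matched. The fit was also run on simulated counts with the same coefficient of variation for every gene, which does not measure its error in these libraries. The alternatives, 16 in all, included DESeq2 1.42.0, other filters, splits, a replicate block and leaving out each library.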

Additional observations from a re-analysis of the deposited data

How the results depend on the processing

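None of the 10 clock genes passed an adjusted p of 0.05 by edgeR in any comparison, and this count was 0 of 10 in all 5 comparisons under the replicate block, DESeq2 size factors, no filter, a mean CPM of at least 5 and either split alone. With each split as its own replicate it was 1 for rosiglitazone against DMSO, 3 for 24 h against 0.5 h, 3 for 48 h against 24 h, 5 for 48 h against 0.5 h and 5 for the mean of 24 and 48 h; splits of 1 library are not separate samples. It was 1 for 48 h against 0.5 h by DESeq2 (Per2) and 1 with only the groups compared in the fit (Per3, adjusted p = 0.0414). Leaving out either library of rosiglitazone 24 h put Per3 past the threshold in 48 h against 0.5 h. Leaving out replicate 1 put Nr1d2 past it in the mean of 24 and 48 h. Those fits keep a single library of 24 h, and calls over all genes rose in them too. Such calls therefore do not set Per3 or Nr1d2 apart. Replicate numbers share no label beyond the number, and same-numbered libraries did not deviate together (correlations -0.083, 0.062 and -0.122), so the replicate block is a check only; it ended 10 of the 18 calls on genes of the other lists, DESeq2 ended 0, and 16 of the 18 were lost without at least 1 library, a step that also leaves fewer samples in the fit.

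Counts over all genes, the background of the clock genes, moved more. From 48 h against 0.5 h the main count of 1031 was 2591 by DESeq2, 407 under the replicate block, 2733 with only the groups compared, 6943 with splits as replicates and 12 to 2706 when a library was left out. From 24 h against 0.5 h, 15 became 1264, 1, 0, 5629 and 0 to 1008 in the same order, and 334 with no filter. Among genes in 48 h against 24 h, 0 became 510, 0, 0, 2890 and 0 to 509, and 19 with no filter. The mean of 24 and 48 h had 1135, then 2592, 501, 974, 7147 and 5 to 2777, and rosiglitazone against DMSO 0, then 2, 0, 174, 78 and 0, and 1 with no filter.

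The direction of the following log2 fold changes turned, and the cause was not tested. Under the replicate block Per2 in 24 h against 0.5 h was 0.0102, Nr1d2 in 48 h against 24 h 0.0043 and Per1 in the mean of 24 and 48 h -0.0296. Cry2 in 24 h against 0.5 h was 0.001 with the first splits, 0.0038 with the second, 0.0034 with each split as a replicate and 0.0146 with only the groups compared. Per1 in the mean of 24 and 48 h was -0.0161 with no filter, -0.0094 with a mean CPM of at least 5 and -0.0054 with the first splits, and Nr1d1 was 0.0001 with the second. Leaving out each library in turn gave, for rosiglitazone against DMSO, -0.1022 to 0.2663 for Arntl and -0.1054 to 0.287 for Dbp. For 24 h against 0.5 h it gave -0.3897 to 0.7799 for Arntl, -0.4256 to 0.673 for Clock, -1.1101 to 0.3007 for Per1, -0.788 to 0.8994 for Per2, -0.5084 to 0.1419 for Per3 and -0.2865 to 0.2148 for Cry2. For 48 h against 24 h it gave -0.5775 to 0.4839 for Clock, -0.0452 to 1.3282 for Per1 and -0.3582 to 0.3722 for Nr1d2. Between 0.5 and 48 h it gave -0.1756 to 0.2874 for Clock, -0.7562 to 0.0256 for Nr1d1 and -0.3679 to 0.0472 for Dbp. For the mean of 24 and 48 h it gave -0.1836 to 0.3842 for Clock, -0.446 to 0.2781 for Per1, -1.6479 to 0.0314 for Per2 and -0.3059 to 0.0928 for Nr1d1. With an offset of 2, the ratio of Per2 to Arntl at 48 h was -3.024 in place of -3.05, and the other 17 group values of ratios moved by less than the spread between libraries. The lowest count of a clock gene in any library was 46.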
